A study of Mus musculus with 10 samples.

Results

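The genes of glycolysis and of the response to hypoxia were followed in whole-lung mRNA of 10 samples at postnatal day 30 (P30). The members are 35 genes chosen by symbol, and they fill 36 of the 54532 rows of the gene table, because Aldoa has 2 rows. The IPF group (increased pulmonary flow, 5 samples) had fistula surgery at P7, in which a needle puncture opens a shunt from the abdominal aorta into the vena cava beside it. The sham group (5 samples) had the same operation without the puncture. All mice were wild type (WT in the labels, C57BL/6J in the study's methods), and each library is the whole lung of 1 sample, so fewer cells of a type and less RNA per cell cannot be told apart.

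Glycolysis splits glucose to pyruvate in the cytosol, and lactate dehydrogenase turns pyruvate into lactate when oxidation in mitochondria is limited or bypassed. Hypoxia-inducible factors (HIFs) are pairs of an oxygen-regulated alpha subunit and the constant partner Arnt. In normal oxygen, prolyl hydroxylases (Egln genes) mark the alpha subunit and the Vhl protein directs its destruction, so HIF activity is set largely at the level of protein. When oxygen falls, HIFs raise the transcription of most glycolytic enzymes, of glucose and lactate transporters, and of genes such as Bnip3, Ankrd37 and Car9. In the lung, Epas1 (HIF-2 alpha) is strongly expressed in endothelial cells.

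Few genes of the module passed the test. Of the 36 rows, all of which passed the filter on low values (a mean of at least 0.1 FPKM, the fragment count scaled by transcript length and library depth), 4 were called at a Benjamini-Hochberg adjusted p under 0.05 in the limma fit across all genes, 1 higher and 3 lower in the IPF group. The glycolytic activator Pfkfb3, the hexokinase Hk2 and the HIF subunit Hif3a fell, and the collagen prolyl hydroxylase P4ha1 rose. This is 11.1% of the members, beside 5.85% of the 20448 genes tested (3.71% higher and 2.14% lower). At the study's own limits, which add an absolute log2 fold change above 1, only Hif3a was left in this fit. These limits were passed by 1.14% of all genes tested (0.68% higher and 0.46% lower). The study applied them to DESeq2, which called more genes lower than higher. The median log2 fold change (log2 FC, IPF minus sham) was -0.05 over the members and 0.0016 over all genes tested. In 5 rows, those 4 and Egln1, the IPF and sham samples did not overlap, which held for 7.29% of all genes tested.

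**Figure D1:**
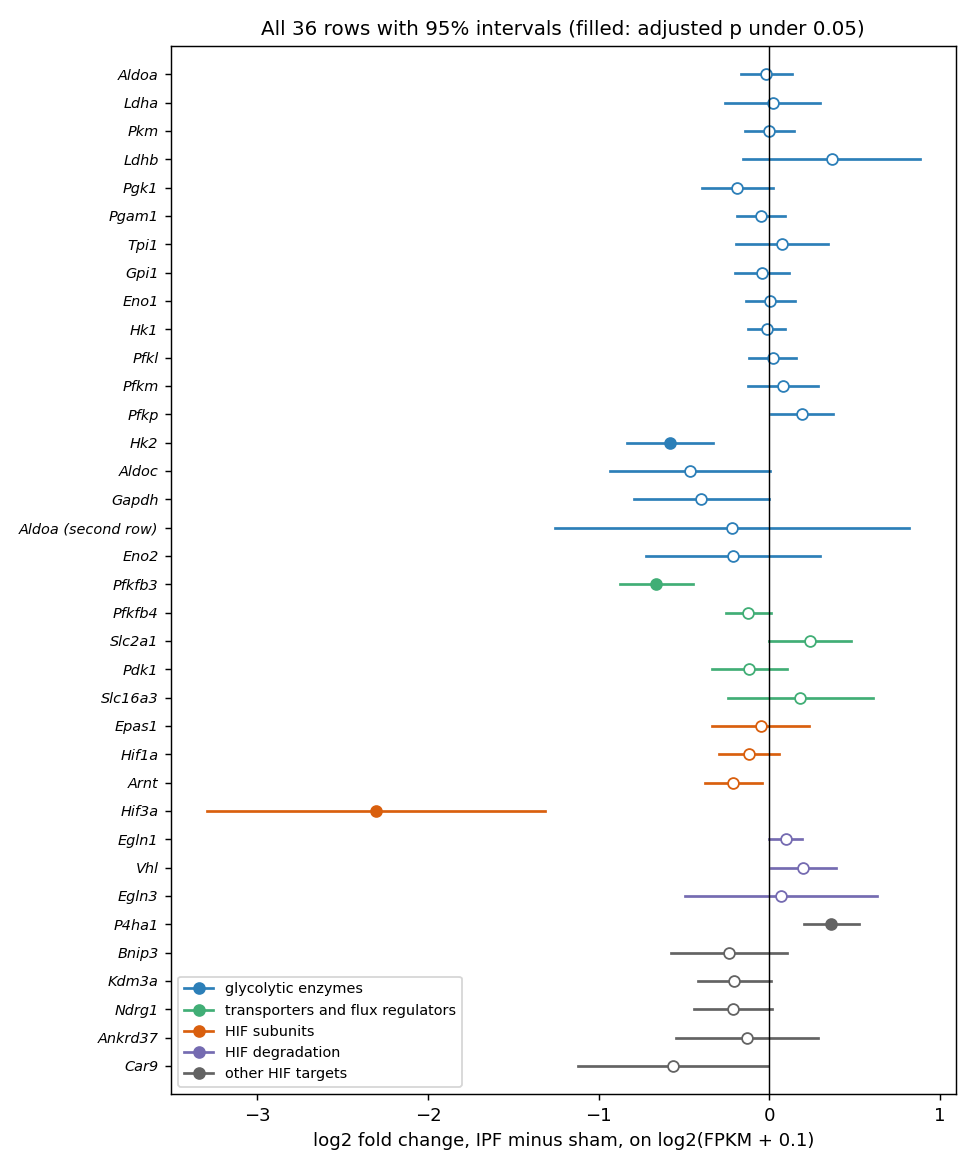
The log2 fold change (x axis, IPF minus sham, on log2(FPKM + 0.1)) of each of the 36 rows (y axis) with its 95% interval from limma, coloured by role, and filled where the adjusted p is under 0.05. Hif3a lies far left of the other rows at -2.31, Pfkfb3 and Hk2 follow at -0.66 and -0.58, and P4ha1 is the filled point to the right of 0, at 0.36.

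The depth was 16250190 to 19026843 reads on genes in the IPF group and 15483046 to 17818542 in the sham group, recovered from the FPKM values. Of 10 lung markers, 1 was called (Cldn5 of endothelial tight junctions, log2 FC 0.56, limma adjusted p = 0.0107). The groups also differed in sex-linked and clock genes. Xist was at 26.8 to 43.2 FPKM in the IPF and 0.0301 to 0.0767 FPKM in the sham group. The Y-linked Ddx3y had 0 reads in every IPF sample and 14.3 to 21.4 FPKM in the sham group. In all, 14 of 15 circadian clock genes were called, 3 higher and 11 lower. Surgery, the sex of the mice and the state of the clock cannot be told apart in these samples. Of 10 neutrophil markers, all were higher in the IPF group and 0 were called by limma (4 with an exact two-sided permutation p under 0.05, unadjusted, beside 18.9% of all genes tested). Their summed level was 313 FPKM in IPF replicate 5, 55.9 to 81.1 FPKM in the 4 other IPF samples and 16.7 to 78.6 FPKM in the sham group. Ly6g was at 0 in 1 IPF and 4 sham samples, and the part of neutrophil RNA in the results was not tested. No gene was called in the lists for erythroid, muscle, ciliated, fat, macrophage and dividing cells, and their sums overlapped between the groups.

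The promoters of the 4 called members, and of Ldha as a member that was not called, show the letters that HIF is known to bind. Pfkfb3 and Ldha have 2 windows each, and both are shown for Pfkfb3 and the first for Ldha. The windows below run from 250 bases before to 50 bases after a transcription start (RefSeq, GRCm38.p6), on the strand of the gene, and the capitals mark the HIF core ACGTG or GCGTG, read on either strand (CACGT or CACGC on the printed one). The E-box CACGTG, which clock factors bind, contains ACGTG, so both searches count it. Windows were found for 33 of the 35 members; Epas1 and Ndrg1 had none.
Pfkfb3, chr2:11553880-11554179, minus strand: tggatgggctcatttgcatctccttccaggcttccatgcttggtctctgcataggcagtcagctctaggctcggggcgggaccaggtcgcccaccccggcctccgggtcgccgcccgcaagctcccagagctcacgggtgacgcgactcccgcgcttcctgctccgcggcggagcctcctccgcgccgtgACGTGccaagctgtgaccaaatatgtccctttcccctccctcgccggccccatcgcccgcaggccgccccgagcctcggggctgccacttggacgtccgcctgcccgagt
Pfkfb3 (second start), chr2:11502041-11502340, minus strand: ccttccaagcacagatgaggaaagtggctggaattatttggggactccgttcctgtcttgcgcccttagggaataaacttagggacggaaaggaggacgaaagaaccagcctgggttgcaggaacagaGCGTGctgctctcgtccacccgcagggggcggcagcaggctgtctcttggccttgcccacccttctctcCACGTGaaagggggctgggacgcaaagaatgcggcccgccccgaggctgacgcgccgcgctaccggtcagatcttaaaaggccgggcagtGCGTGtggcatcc
Hk2, chr6:82774405-82774704, minus strand: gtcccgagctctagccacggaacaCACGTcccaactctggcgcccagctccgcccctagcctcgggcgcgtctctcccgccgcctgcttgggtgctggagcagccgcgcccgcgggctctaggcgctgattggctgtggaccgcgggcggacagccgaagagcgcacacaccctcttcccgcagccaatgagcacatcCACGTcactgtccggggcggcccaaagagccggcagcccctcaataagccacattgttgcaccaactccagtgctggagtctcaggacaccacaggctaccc
Hif3a, chr7:17062378-17062677, minus strand: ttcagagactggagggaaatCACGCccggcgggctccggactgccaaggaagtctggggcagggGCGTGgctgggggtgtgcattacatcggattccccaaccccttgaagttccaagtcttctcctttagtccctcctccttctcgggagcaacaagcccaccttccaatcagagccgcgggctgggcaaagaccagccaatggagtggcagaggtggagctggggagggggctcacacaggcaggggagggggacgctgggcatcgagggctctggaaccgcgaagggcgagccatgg
P4ha1, chr10:59323046-59323345, plus strand: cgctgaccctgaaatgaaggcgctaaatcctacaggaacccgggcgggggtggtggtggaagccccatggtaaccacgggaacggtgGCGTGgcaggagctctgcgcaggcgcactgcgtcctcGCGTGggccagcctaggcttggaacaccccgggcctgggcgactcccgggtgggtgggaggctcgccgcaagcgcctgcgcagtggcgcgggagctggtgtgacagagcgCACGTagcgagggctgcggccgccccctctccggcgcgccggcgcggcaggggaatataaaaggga
Ldha, chr7:46845554-46845853, plus strand: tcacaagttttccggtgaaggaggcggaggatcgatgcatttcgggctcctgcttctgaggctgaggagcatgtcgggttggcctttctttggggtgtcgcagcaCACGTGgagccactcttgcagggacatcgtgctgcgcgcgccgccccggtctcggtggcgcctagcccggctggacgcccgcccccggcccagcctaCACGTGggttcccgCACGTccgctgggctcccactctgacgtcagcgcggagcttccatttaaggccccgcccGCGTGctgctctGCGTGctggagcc
A core was present in a window of 29 of the 33 members (87.9%), beside 46.7% of all symbols and 66.9% of the 9735 symbols with a mean of at least 1 FPKM. The core contains a CG pair, and the member windows were richer in G and C (median 61.8%) than all windows (52.7%) but close to those of the symbols with a mean of at least 1 FPKM (60.7%). The part of base composition in this count was not tested. CACGTG stood in a window of 5 members (15.2%, beside 11.6% of the symbols with a mean of at least 1 FPKM), namely Pfkfb3 (in its second window), Bnip3, Hif1a, Pfkm and Ldha, the last with 2 copies. The 4 called members all had a core, and so did most members that were not called, so the letters did not separate them.

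Among the 17 glycolytic enzymes (18 rows), Hk2 alone was called, a share of 5.56% beside the 5.85% of all genes. Hexokinase traps glucose in the cell as glucose 6-phosphate, and Hk2 is the inducible form, bound to mitochondria, beside the constitutive Hk1. Hk2 (ENSMUSG00000000628, chromosome 6, 82725025 to 82774454) was at 3.37, 2.68, 3.15, 4.16 and 4.13 FPKM in IPF replicates 1 to 5 and at 5.42, 4.92, 5.55, 5.10 and 5.13 FPKM in sham replicates 1 to 5. Every IPF sample lay below every sham sample. The group means were 3.50 ± 0.640 and 5.22 ± 0.254 FPKM (SD, n = 5 each), for a log2 FC of -0.58 ± 0.12 (standard error; limma adjusted p = 0.0140). The exact two-sided permutation test gave p = 0.00794, the smallest that 5 against 5 samples allow.

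Hk1 (chromosome 10) was at 10.4, 9.96, 10.8, 10.4 and 10.2 FPKM in the IPF samples and at 11.1, 10.5, 10.1, 10.5 and 10.2 FPKM in the sham samples. The groups overlapped, with a log2 FC of -0.02 (95% interval -0.12 to 0.092, limma adjusted p = 0.898). Of the summed FPKM of both hexokinases, Hk2 made up 25.2% ± 3.45 in the IPF and 33.3% ± 1.36 in the sham group (SD, n = 5 each), and the log2 ratio of Hk2 to Hk1 did not overlap between the groups (-1.89 to -1.30 against -1.10 to -0.86).

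The abundant enzymes showed no difference that passed the test. Aldoa (ENSMUSG00000030695), which splits fructose 1,6-bisphosphate, was the most abundant enzyme, at 108, 109.9, 120.1, 111 and 114 FPKM in the IPF and 99.3, 120.2, 121, 120.0 and 110.4 FPKM in the sham samples. The groups overlapped, and the log2 FC was -0.02 (95% interval -0.17 to 0.13, limma adjusted p = 0.926). Over the 9 enzyme rows with a mean of at least 20 FPKM (Aldoa, Ldha, Pkm, Ldhb, Pgk1, Pgam1, Tpi1, Gpi1 and Eno1), log2 FCs ran from -0.19 (Pgk1) to 0.36 (Ldhb), with limma adjusted p from 0.302 to 0.998. The value of Ldhb was 0.15 without IPF replicate 3 (limma adjusted p = 0.689). Pkm was at 72.3 ± 2.68 and 72.5 ± 5.93 FPKM in the IPF and sham groups, Pgam1 at 37.5 ± 3.49 and 38.7 ± 1.20, Gpi1 at 28.2 ± 1.69 and 29.1 ± 2.76, and Eno1 at 27.0 ± 1.39 and 27.0 ± 2.13 (SD, n = 5 each). The intervals of their differences were narrow. Pkm, which makes pyruvate, had a 95% interval of -0.14 to 0.14, Eno1 (enolase) of -0.14 to 0.15, Pgam1 (phosphoglycerate mutase) of -0.19 to 0.094 and Gpi1 (glucose phosphate isomerase) of -0.20 to 0.12. Tpi1, which interconverts the triose phosphates, was at 31.7 to 42.7 FPKM in the IPF and 24.6 to 38.2 FPKM in the sham group, with the wider interval of -0.20 to 0.34. Pgk1, an X-linked kinase that makes ATP, was at 42.6 ± 5.10 FPKM in the IPF and 48.5 ± 4.77 FPKM in the sham group (SD, n = 5 each), with 2 IPF samples below the sham range (limma adjusted p = 0.302).

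**Figure D2:**
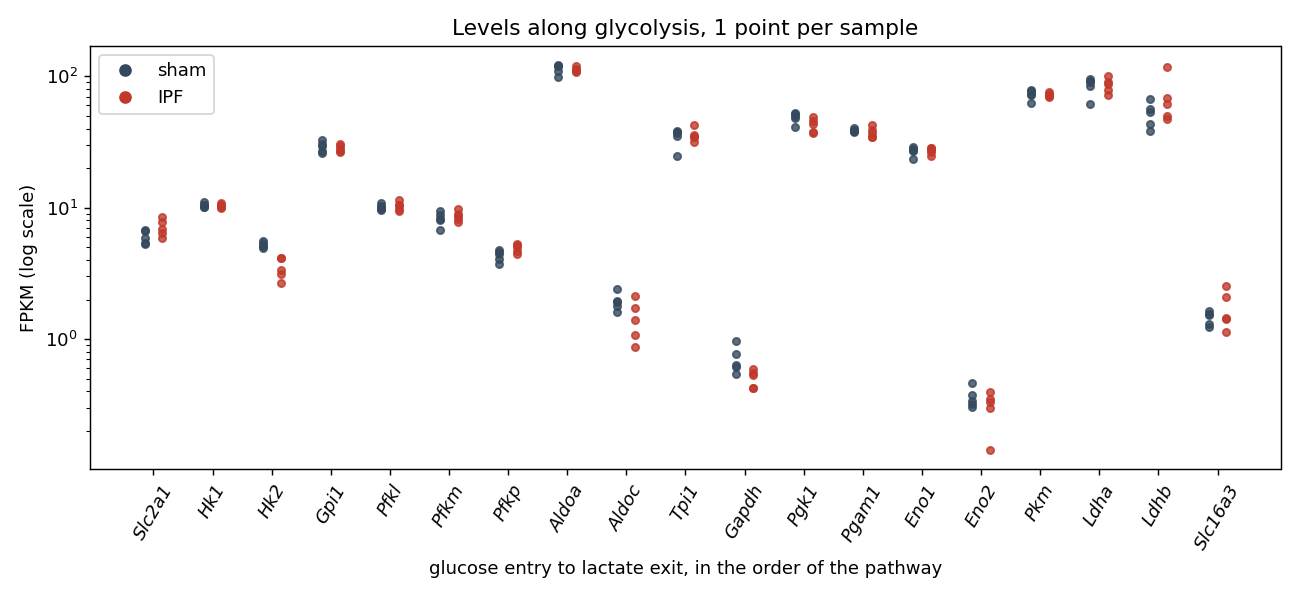
FPKM on a log axis (y) for the glycolytic enzymes and the glucose and lactate transporters (x, in the order of the pathway), 1 point per sample, sham at the left and IPF at the right of each gene. The clouds of the groups lie over each other for each gene except Hk2, and Gapdh sits below 1 FPKM, far under the enzymes before and after it. The second row of Aldoa is left out.

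The paralogs that make up 1 step stood at different levels. Phosphofructokinase, the committed step, drew on 3 subunits. Pfkl was at 10.3 ± 0.728 and 10.2 ± 0.509 FPKM in the IPF and sham groups, Pfkm at 8.69 ± 0.749 and 8.24 ± 0.999, and Pfkp at 4.92 ± 0.344 and 4.31 ± 0.411 (SD, n = 5 each). The differences in Pfkl and Pfkm were within the spread between samples, and Pfkp had a log2 FC of 0.19, with 3 IPF samples above the sham range (limma adjusted p = 0.234). The shares of the 3 subunits overlapped between the groups, with Pfkl at 43.1% ± 3.00 and 44.8% ± 2.86 of their sum. Ldha and Ldhb encode the subunits of lactate dehydrogenase that favour lactate and pyruvate, respectively. Ldha was at 78.4, 89.7, 101, 87.1 and 71.4 FPKM in the IPF and 61.9, 91.0, 91.2, 95.2 and 84.4 FPKM in the sham samples, with sham replicate 1 the lowest of the 10. Ldhb was at 50.3, 68.8, 118, 61.0 and 47.2 FPKM in the IPF and 38.6, 55.9, 53.5, 66.8 and 43.0 FPKM in the sham samples, and IPF replicate 3 was far above the rest. The log2 ratio of Ldhb to Ldha was -0.38 ± 0.36 in the IPF group and -0.73 ± 0.17 in the sham group (SD, n = 5 each), and the groups overlapped (-0.64 to 0.23 against -0.97 to -0.51). Genes of ciliated airway cells were also highest in IPF replicate 3, with a summed level of 120.3 FPKM and at most 69.4 FPKM in the others. The adipocyte sum (13.2 FPKM, at most 9.15 FPKM in the others) and the lung marker sum (46174 FPKM, at most 42726 FPKM) were highest there too. The part of any of these in Ldhb was not tested. The minor forms Aldoc (1.43 ± 0.503 and 1.94 ± 0.301 FPKM in IPF and sham) and Eno2 (0.304 ± 0.0960 and 0.359 ± 0.0621 FPKM, SD, n = 5 each) were low, and neither was called (limma adjusted p = 0.262 and 0.663).

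Gapdh, a dehydrogenase of the middle of the pathway that the study used as the reference gene of its qRT-PCR, was listed at only 0.425 to 0.589 FPKM in the IPF and 0.539 to 0.973 FPKM in the sham group. These values rest on 30 to 67 reads per sample, while Actb, another reference gene, was at 629.8 to 786 and 620.4 to 808 FPKM in the same samples. Gapdh has many processed copies in the mouse genome, and Iffo1 on the other strand overlaps it in the table, at 3.35 to 4.47 and 4.37 to 5.24 FPKM. How the counting shared reads among such copies was not tested, so the level listed for Gapdh is uncertain and its log2 FC (-0.40, limma adjusted p = 0.253) is not read as a change of the enzyme. The second row named Aldoa (ENSMUSG00000114515, 126800790 to 126809108) held 2 to 15 reads per sample, too few to show a difference (95% interval -1.26 to 0.82). In all, 14 of the 36 rows overlap another gene at or above the filter, 12 of them on the other strand, Tpi1, Pfkm, Pfkp and Ankrd37 among them. Whether strand was used in counting is not given in the sources used here.

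Of the 5 transporters and flux regulators, Pfkfb3 alone was called (1 of 5, beside 5.85% of all genes). Its adjusted p was the smallest of the module. Pfkfb3 makes fructose 2,6-bisphosphate, the strongest activator of phosphofructokinase, and is a known driver of glycolysis in endothelial cells. Pfkfb3 (ENSMUSG00000026773, chromosome 2, 11471433 to 11554077) was at 13.3, 12.6, 12.0, 13.1 and 14.9 FPKM in IPF replicates 1 to 5 and at 25.7, 19.7, 21.9, 17.3 and 20.5 FPKM in sham replicates 1 to 5. The highest IPF sample lay below the lowest sham sample. The means were 13.2 ± 1.10 and 21.0 ± 3.09 FPKM (SD, n = 5 each), for a log2 FC of -0.66 ± 0.10 (standard error; limma adjusted p = 0.00336, exact two-sided permutation p = 0.00794). Its paralog Pfkfb4 was at 9.10 ± 0.583 and 9.91 ± 0.395 FPKM (SD, n = 5 each; log2 FC -0.12, limma adjusted p = 0.281). The log2 ratio of Pfkfb3 to Pfkfb4 was 0.53 ± 0.11 in the IPF group and 1.08 ± 0.21 in the sham group (SD, n = 5 each), without overlap.

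Slc2a1, the basal glucose transporter GLUT1, was at 6.45, 5.89, 8.43, 6.89 and 7.79 FPKM in the IPF and 5.42, 6.74, 5.88, 6.59 and 5.26 FPKM in the sham samples. Its mean lay higher in the IPF group, with 3 samples above the sham range, but the difference did not pass the test (log2 FC 0.24, 95% interval -0.0019 to 0.48, limma adjusted p = 0.260). The lactate exporter Slc16a3 was at 1.72 ± 0.566 and 1.45 ± 0.166 FPKM in the IPF and sham groups, and Pdk1 at 4.03 ± 0.559 and 4.36 ± 0.318 FPKM (SD, n = 5 each). Neither Slc16a3 (log2 FC 0.18, limma adjusted p = 0.657, and 0.036 without IPF replicate 3) nor Pdk1, a kinase that shuts pyruvate out of the citric acid cycle (log2 FC -0.12, limma adjusted p = 0.572, and -0.062 without IPF replicate 2 or -0.18 without IPF replicate 5), passed the test.

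The HIF alpha subunits differed by orders of magnitude in level, and the lowest of them was the one that fell (1 of the 4 subunits, Arnt included, beside 2.14% of all genes called lower). Epas1 (chromosome 17) was among the most abundant transcripts of the lung, ranked 25 of all rows by mean FPKM. It was at 823, 618, 742, 702 and 955 FPKM in the IPF and 896, 787, 813, 732 and 725 FPKM in the sham samples, with the highest and the lowest sample both in the IPF group (log2 FC -0.05, 95% interval -0.34 to 0.23, limma adjusted p = 0.873). Hif1a, the widely expressed alpha subunit, was at 16.0 ± 0.944 and 17.4 ± 2.06 FPKM (SD, n = 5 each; log2 FC -0.12, 95% interval -0.29 to 0.058, limma adjusted p = 0.462, and log2 FC -0.053 without sham replicate 5). Of the summed FPKM of the 3 alpha subunits, Epas1 made up 97.8% ± 0.262 in the IPF and 97.4% ± 0.362 in the sham group, and Hif1a 2.07% ± 0.321 and 2.17% ± 0.410 (SD, n = 5 each).

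Hif3a encodes the third alpha subunit, whose splice forms include ones that oppose the other HIFs. Hif3a (ENSMUSG00000004328, chromosome 7, 17031507 to 17062427) was at 0.595, 0.367, 0.307, 0.458 and 2.69 FPKM in IPF replicates 1 to 5 and at 5.18, 3.41, 3.62, 2.71 and 3.03 FPKM in sham replicates 1 to 5. In 4 IPF samples it was a small part of the sham level, and IPF replicate 5 lay just below the lowest sham sample, replicate 4. The means were 0.883 ± 1.01 and 3.59 ± 0.955 FPKM (SD, n = 5 each), from 39 to 573 reads per sample, and the log2 FC was -2.31 (standard error 0.45, limma adjusted p = 0.0130, exact two-sided permutation p = 0.00794). Without IPF replicate 5 it was -2.79 (limma adjusted p = 4.53e-05), and with a pseudocount of 1 it was -1.39 (limma adjusted p = 0.0122). The files give 1 value per gene, so the splice forms of Hif3a were not told apart.

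IPF replicate 5 stood nearer to the sham samples in other genes too, which were chosen after their values were seen. Fkbp5, a co-chaperone of the glucocorticoid receptor and one of its best-known target genes, was at 2.07, 1.61, 1.71, 2.08 and 9.11 FPKM in IPF replicates 1 to 5 and at 13.7 to 19.3 FPKM in the sham group. Zbtb16, a transcription factor that glucocorticoids induce, was at 2.32, 1.11, 3.81, 1.47 and 24.7 FPKM in the IPF samples and at 26.9 to 47.3 FPKM in the sham group. As in Hif3a, 4 IPF samples lay far below the sham range in both genes, and replicate 5 lay between them and that range. The clock gene Per1 was at 13.4, 6.52, 9.63, 10.6 and 26.3 FPKM against 36.4 to 49.2 FPKM, and the part of any of these in the level of Hif3a was not tested.

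**Figure D3:**
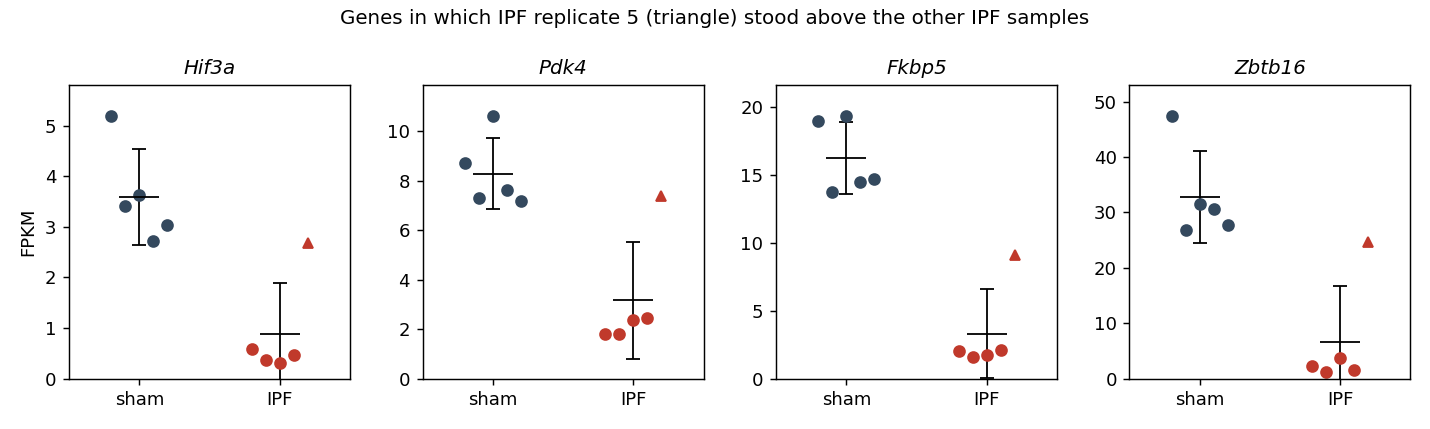
FPKM (y axis, from 0) of Hif3a, Pdk4, Fkbp5 and Zbtb16 in each sample, with the mean (horizontal line) and SD (bar) of each group, n = 5 each, cut at 0; the triangle is IPF replicate 5. In Hif3a, Fkbp5 and Zbtb16 the triangle lies between the 4 other IPF samples and the sham samples, and in Pdk4 it lies within the sham range.

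In the partner and the degradation machinery of the HIFs, no gene was called. Arnt, which pairs with each alpha subunit, was at 13.8, 12.7, 12.1, 13.3 and 15.1 FPKM in the IPF and 17.4, 14.3, 15.6, 14.5 and 15.7 FPKM in the sham samples. Of the IPF samples, 4 lay below the sham range, with a log2 FC of -0.21 that did not pass the adjustment (95% interval -0.38 to -0.046, limma adjusted p = 0.139, exact two-sided permutation p = 0.0317, unadjusted). Egln1 (PHD2), the main oxygen sensor of the pathway, was at 31.6, 31.4, 30.7, 32.7 and 33.0 FPKM in the IPF and 30.2, 30.6, 28.7, 30.4 and 29.1 FPKM in the sham samples. The groups did not overlap, yet the difference was small (log2 FC 0.10, 95% interval -0.0023 to 0.19) and was not called (limma adjusted p = 0.268, exact two-sided permutation p = 0.00794, unadjusted). Vhl, which recognises the hydroxylated alpha subunit, had a log2 FC of 0.20 (limma adjusted p = 0.237), and of 0.12 without sham replicate 1, with 15.1 ± 0.368 and 13.2 ± 1.77 FPKM (SD, n = 5 each). Egln3 (PHD3), a hydroxylase that HIF itself induces, was at 0.417 to 0.598 and 0.222 to 0.744 FPKM from 9 to 33 reads, and its interval (-0.50 to 0.63) leaves changes of either sign undetected at this depth.

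Among the 6 other HIF targets, P4ha1 rose (1 of 6, beside 3.71% of all genes called higher) and the 5 others had negative fold changes that did not pass the test. P4ha1 is the catalytic subunit of the enzyme that hydroxylates proline in collagen, a step needed for a stable triple helix. P4ha1 (ENSMUSG00000019916, chromosome 10, 59323296 to 59373304) was at 39.2, 43.1, 37.3, 45.3 and 34.2 FPKM in IPF replicates 1 to 5 and at 32.1, 30.6, 30.3, 30.4 and 30.5 FPKM in sham replicates 1 to 5. Every IPF sample lay above every sham sample, and the sham samples were close together. The means were 39.8 ± 4.45 and 30.8 ± 0.767 FPKM (SD, n = 5 each), for a log2 FC of 0.36 ± 0.074 (standard error; limma adjusted p = 0.0153, exact two-sided permutation p = 0.00794).

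**Figure D4:**
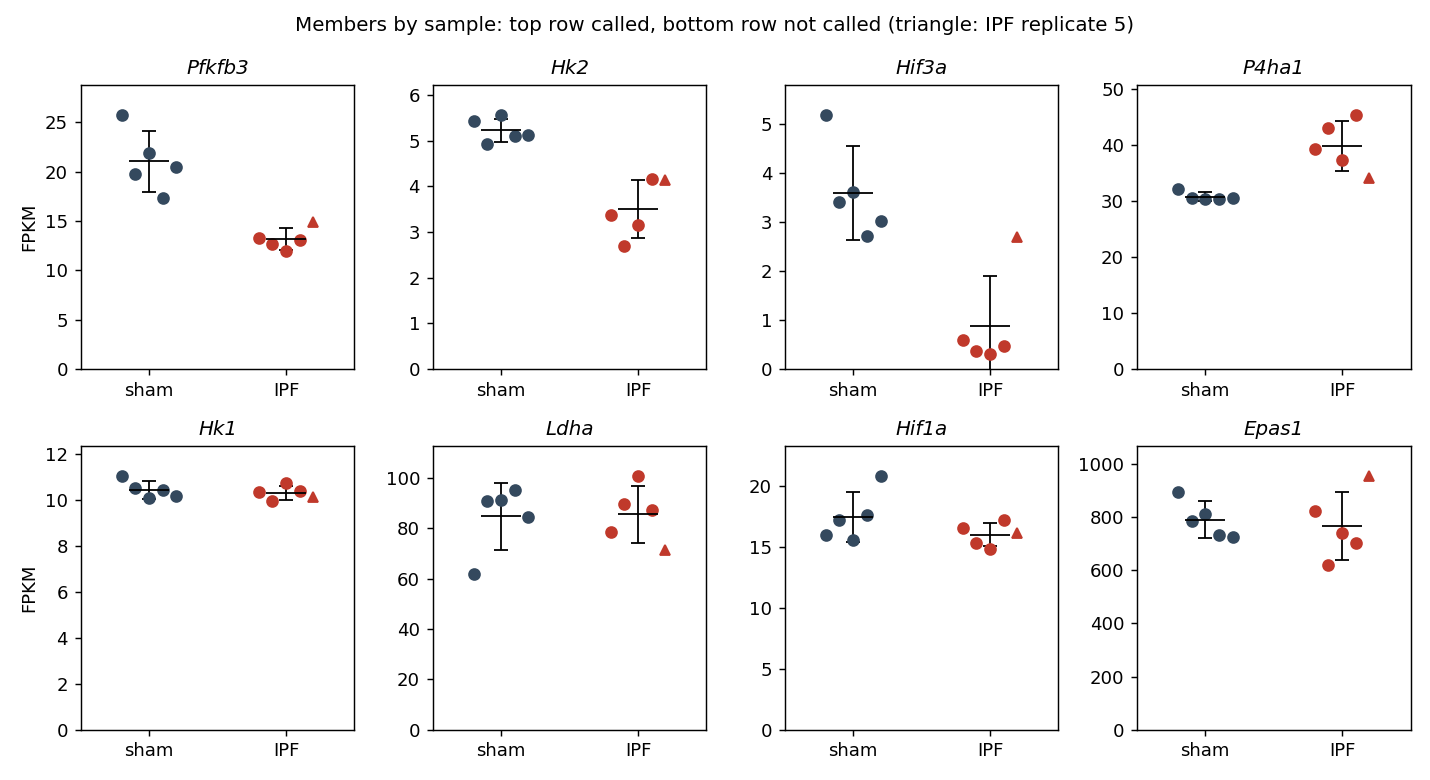
FPKM (y axis, from 0) in each sample of the sham and IPF groups for the 4 called members (top: Pfkfb3, Hk2, Hif3a, P4ha1) and 4 that were not called (bottom: Hk1, Ldha, Hif1a, Epas1), with the mean (horizontal line) and SD (bar), n = 5 each, cut at 0; the triangle is IPF replicate 5. In the top row no IPF sample reaches into the sham range, while in the bottom row the groups overlap.

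The mitophagy gene Bnip3 was at 13.7, 10.5, 11.1, 10.3 and 19.5 FPKM in the IPF and 13.7, 14.4, 15.04, 15.6 and 16.0 FPKM in the sham samples, so IPF replicate 5 was the highest of the 10. Its log2 FC was -0.24 (limma adjusted p = 0.440), and -0.39 without that sample (limma adjusted p = 0.0231). The histone demethylase Kdm3a was at 6.76, 6.58, 5.99, 6.48 and 8.71 FPKM in the IPF and 9.04, 7.72, 7.497, 7.73 and 7.68 FPKM in the sham samples. Here too IPF replicate 5 was apart from its group, and the log2 FC went from -0.21 (limma adjusted p = 0.276) to -0.29 without it (limma adjusted p = 0.0337). Sham replicate 1 was also apart from its group, and without it the log2 FC was -0.16 (limma adjusted p = 0.450). Without IPF replicate 5, 6 members were called in place of 4, 1 higher and 5 lower. Calls over all genes also rose in that fit, from 1196 to 1620 (7.88% of genes tested, 3.26% lower). Ankrd37, among the most HIF-dependent of known targets, was at 1.37 ± 0.429 and 1.49 ± 0.279 FPKM (SD, n = 5 each; limma adjusted p = 0.761). Car9, a carbonic anhydrase that is nearly silent in well-oxygenated tissue, was at 0.319 to 0.691 and 0.448 to 1.24 FPKM from 13 to 46 reads (log2 FC -0.56, limma adjusted p = 0.250). The stress gene Ndrg1 was at 3.27 to 4.08 FPKM in the IPF and 3.52 to 5.11 FPKM in the sham group and had a log2 FC of -0.21 (limma adjusted p = 0.288).

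The rest of the pathway was taken from lists of 84 other genes found in the table, 79 of which passed the filter. Of these, 11 were called (13.9%), 5 higher and 6 lower, beside 5.85% of all genes tested (3.71% higher and 2.14% lower). The median log2 FC of those tested was -0.03. Among 20 other enzymes of glycolysis and gluconeogenesis, 17 were tested and 0 were called by limma, while 2 had an exact two-sided permutation p under 0.05, unadjusted, beside 18.9% of all genes tested. Among 10 other glucose and monocarboxylate transport genes, the lactate and pyruvate carrier Slc16a7 fell from 4.33 ± 0.491 to 2.67 ± 0.613 FPKM (SD, n = 5 each; log2 FC -0.70, limma adjusted p = 0.0183). The glucose transporter family member Slc2a6 rose from 0.552 ± 0.164 to 1.13 ± 0.204 FPKM (SD, n = 5 each), from only 16 to 79 reads per sample. Slc2a6 was called with a log2 FC of 0.94 (limma adjusted p = 0.0246), and its log2 FC was 0.46 with a pseudocount of 1. This call was lost when the replicate number entered as a block (limma adjusted p = 0.0506), without the filter, and without IPF replicate 1, IPF replicate 2 or sham replicate 3 (limma adjusted p up to 0.0629).

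Of 12 other flux regulators, 11 were tested and 3 were called (27.3%, beside 5.85% of all genes), 2 of which act on the pyruvate dehydrogenase complex, the gate from glycolysis to the citric acid cycle. Pdp1, the phosphatase that switches the complex on, was at 9.05, 10.2, 9.02, 9.20 and 8.45 FPKM in the IPF and 6.72, 6.78, 6.52, 7.05 and 6.29 FPKM in the sham samples, without overlap (log2 FC 0.46, limma adjusted p = 0.00240). Pdk4, a kinase that switches it off, was at 1.81, 1.81, 2.37, 2.47 and 7.37 FPKM in the IPF and 8.71, 7.29, 10.6, 7.63 and 7.17 FPKM in the sham samples. It was lower in 4 IPF samples, and IPF replicate 5 lay within the sham range (log2 FC -1.56, limma adjusted p = 0.0173). The other kinases and phosphatases of the complex, Pdk2, Pdk3 and Pdp2, were not called, with log2 FCs of 0.10, -0.23 and 0.25. The groups did not overlap in Pdp2 (exact two-sided permutation p = 0.00794, unadjusted), as in 7.29% of all genes tested. They overlapped in Pdk2 and in Pdk3 (exact two-sided permutation p = 0.222 and 0.0397, unadjusted). The third called gene, Pfkfb2, a paralog of Pfkfb3, fell from 5.54 ± 0.670 to 4.04 ± 0.325 FPKM (SD, n = 5 each), with a log2 FC of -0.44 (limma adjusted p = 0.0169).

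Of 30 further HIF targets, 29 were tested and 6 were called, 3 in each direction (20.7%, beside the same 5.85% of all genes), with a median log2 FC of -0.02 over those tested. Adm, which encodes the vasodilator peptide adrenomedullin, was at 16.1, 12.9, 13.7, 12.9 and 11.2 FPKM in the IPF and 2.29, 2.17, 2.50, 2.56 and 1.86 FPKM in the sham samples. Every IPF sample lay far above the sham range. Higher in the IPF group were thus Adm (2.50, limma adjusted p = 3.86e-07), Ppp1r3c, which targets a phosphatase to glycogen (1.27, limma adjusted p = 0.00195), and Wsb1 of a ubiquitin ligase (0.37). Among those lower were Ddit4, an inhibitor of mTORC1 signaling (-1.14, limma adjusted p = 0.000432) and Bhlhe40, a repressor that also acts in the clock (-0.55). The targets that were not called ran from Angptl4, an inhibitor of lipoprotein lipase (-1.18, limma adjusted p = 0.0523), to Hilpda, a lipid droplet protein (0.47, limma adjusted p = 0.0675). Several lay near the threshold, among them the heme oxygenase Hmox1, whose groups did not overlap (0.30, limma adjusted p = 0.0520), and the adenylate kinase Ak4 (-0.52, limma adjusted p = 0.0695), while the angiogenic factor Vegfa did not (-0.17, limma adjusted p = 0.401). Of 12 other HIF regulators found, among them Egln2 (-0.17) and Hif1an (0.09), 0 were called by limma, and 1 had an exact two-sided permutation p under 0.05, unadjusted, beside 18.9% of all genes tested.

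**Figure D5:**
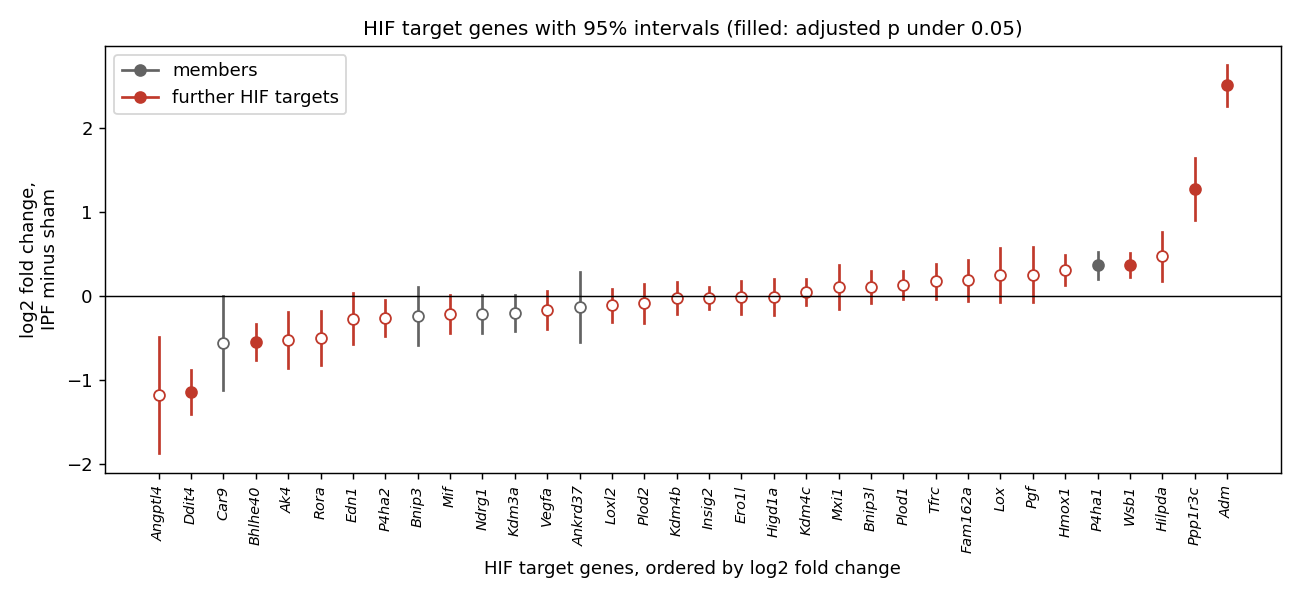
The log2 fold change (y axis, IPF minus sham) with its 95% interval from limma for the 6 HIF target members (grey) and further HIF targets (red), ordered by size (x axis) and filled where the adjusted p is under 0.05. The genes spread on both sides of 0, from -1.18 for Angptl4 (open) to 2.50 for Adm.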

How the data were processed

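Whole-lung mRNA of 5 IPF and 5 sham samples was sequenced. Per the methods, the authors trimmed reads with Fastp, aligned them with HISAT2 and quantified genes with StringTie, and they deposited 1 FPKM value per gene and sample. The submitters' processing notes also name Bowtie 0.12.2. The methods name GRCm39, but the table's coordinates fit GRCm38, since chromosome 1 holds a gene up to base 195323493, more than the length of that chromosome in GRCm39. Read numbers and depth were recovered from the values, since 100% of them, multiplied by gene length, came within 0.05 of a whole number of reads. The labels do not say whether each sample was 1 animal, so p-values measure only the spread between samples.

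Genes with a mean of at least 0.1 FPKM were tested with limma 3.58.1 (R 4.3.3, trended variances) on log2(FPKM + 0.1), IPF against sham with no covariate, and p-values were Benjamini-Hochberg adjusted over all 20448 genes. DESeq2, which the study used, was not run on the recovered reads. Fold changes on this scale understate those of low genes. Exact permutation tests used all 252 splits. The fit was tested on simulated data. Members and lists were chosen with earlier results of these data known. Every member is named, with values by sample for called members and the most abundant of each role. Other genes are named where called, at most 4 per list by adjusted p, and those beyond it (Wsb1, Bhlhe40, Fkbp5, Zbtb16, Per1, genes that were not called and reference genes) after their values were seen. A called gene of the further HIF targets is counted but not reported here. Tables were prepared with Python 3.11.15 and pandas 2.3.3.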

Additional observations from a re-analysis of the deposited data

Results flagged for a closer look

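In 8 of 94 sets of 5 samples (47 rows, 2 groups), the gap between the most extreme sample and the next, divided by the range on the log2(FPKM + 0.1) scale, was above Dixon's critical value of 0.71, which chance passes in about 1 of 20 sets. All 8 fell on 2 libraries. One of them, sham replicate 1, also had more genes with reads than the rest, 25486 against 22475 to 23575 in the other libraries. The part of this in its values was not tested. Sham replicate 1 was the lowest of its group in the enzymes Ldha (61.9 FPKM against 84.4 to 95.2 FPKM in the other sham samples), Tpi1 (24.6 FPKM against 34.99 to 38.2 FPKM) and Eno1 (23.3 FPKM against 27.2 to 28.7 FPKM), and the highest in P4ha1 (32.1 FPKM against 30.3 to 30.6 FPKM) and Kdm3a (9.04 FPKM against 7.497 to 7.73 FPKM). IPF replicate 5 was the highest of its group in Hif3a (2.69 FPKM against 0.307 to 0.595 FPKM in the other IPF samples), Ankrd37 (2.13 FPKM against 1.07 to 1.24 FPKM) and Pdk4 (7.37 FPKM against 1.81 to 2.47 FPKM).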

How the results depend on the processing

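Pfkfb3, Hk2, Hif3a and P4ha1 kept their direction and an adjusted p under 0.05 under all 21 alternatives, and 30 of the 32 other rows were called under none. The exceptions were Bnip3 and Kdm3a. Without IPF replicate 5, and without it and sham replicate 1 together (chosen after seeing the data; -0.43 for Bnip3 and -0.24 for Kdm3a), both were called, so that 5 members were lower, 3 other HIF targets were called (2 lower), and 10 further pathway genes were lower. Calls over all genes rose in the same fits, with 437 lower in all samples, 670 without IPF replicate 5 and 610 without both. Over the fits that left out 1 sample, members lower ranged from 3 to 5, other HIF targets called from 1 to 3 (0 to 2 lower) and other pathway genes lower from 6 to 10. The median over the members was -0.11 with quantile normalization. With the replicate number as a block, 4 members were called as without it, and of the other pathway genes named only the call of Slc2a6 was lost (log2 fold change 0.94). Samples with the same number correlated by -0.042 to 0.17 in their deviations from the group means (over genes), and 3 of 5 IPF samples correlated best with their own number. With 5 samples per group, these values do not settle whether the numbers mark pairs. The main fit did not take them as pairs. Over all genes, 1196 were called in either direction, 775 without IPF replicate 4, 1620 without IPF replicate 5, 1499 without that sample and sham replicate 1, and 1749 with array weights. With a pseudocount of 1, 74 genes passed both limits in place of 233.

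The sign changed for 11 rows that were called in no fit. Over the fits that left out 1 sample, the log2 fold changes were -0.067 to 0.0057 for Aldoa, -0.090 to 0.081 for Ldha, -0.050 to 0.027 for Pkm, -0.045 to 0.11 for Tpi1, -0.082 to 0.0011 for Gpi1, -0.045 to 0.035 for Eno1, -0.031 to 0.0036 for Hk1, -0.016 to 0.050 for Pfkl, -0.61 to 0.049 for the second row of Aldoa, -0.13 to 0.022 for Epas1 and -0.15 to 0.20 for Egln3. With quantile normalization they were -0.029 for Ldha and -0.032 for Eno1, with median-of-ratios scaling -0.00023 for Eno1, and with array weights -0.046 for Ldha, -0.0084 for Tpi1, -0.028 for Eno1 and 0.12 for the second row of Aldoa. Without both libraries they were -0.028 for Ldha, -0.0024 for Tpi1, -0.061 for Eno1, 0.0096 for Hk1, -0.018 for Pfkl and 0.21 for the second row of Aldoa. For 10 other rows that were not called in the fit of all samples, leaving out 1 sample moved the value by over 1.5 times with the same sign: Ankrd37 (-0.29 to -0.058), Bnip3 (-0.39 to -0.16), Eno2 (-0.30 to -0.043), Hif1a (-0.16 to -0.053), Ldhb (0.15 to 0.48), Pdk1 (-0.18 to -0.062), Pfkm (0.011 to 0.13), Pgam1 (-0.10 to -0.018), Slc16a3 (0.036 to 0.31) and Vhl (0.12 to 0.24). The cause of these changes was not tested. Gapdh, Eno2, Egln3, Car9, Ankrd37, the second row of Aldoa and, outside the members, Slc2a6 rest on fewer than 100 reads in every sample, which limits what they can show.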
